A study of Mus musculus with 19 samples.

Results

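Amyotrophic lateral sclerosis (ALS) is a disease in which motor neurons die, and many of the genes mutated in it, or acting as modifiers, encode proteins that bind RNA. The 9 genes described here, Taf15, Ewsr1, Tardbp, Hnrnpa1, Hnrnpa2b1, Matr3, Atxn2, Tia1 and Ncbp1, were taken by symbol from the deposited gene table, in which all 9 were found among 50559 genes. No measured value entered this choice, but an earlier analysis of the same libraries was known when it was made, and the study itself picked Taf15, Hnrnpa2b1, Atxn2 and Ncbp1 as rhythmic on these libraries, so a rhythm in those 4 is not independent evidence. Ncbp1 encodes the large subunit of the nuclear cap-binding complex and stands with the others as a partner in mRNA processing.

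The proteins share a way of working. Most of them shuttle between nucleus and cytoplasm, bind pre-mRNA or mRNA through RNA recognition motifs or related domains, and carry stretches of low sequence complexity that let them gather into granules. In motor neurons of patients, TDP-43, the product of Tardbp, is lost from the nucleus and aggregates in the cytoplasm. Time of day enters through light, feeding and the circadian clock, which drive daily rhythms in the transcription and translation of many mRNAs.

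The samples were spinal cords of 10-week-old male mice on a C57BL/6J background, heterozygous for RiboTag and carrying ChAT-Cre, kept in 12 h of light and 12 h of dark. In RiboTag mice, Cre switches the ribosomal protein Rpl22 to a copy with an HA tag, so that an HA immunoprecipitate (IP) recovers mRNA on ribosomes of the Cre-expressing cells, here all cells that use the choline acetyltransferase promoter, which include motor neurons and other cholinergic neurons. Cords were taken at zeitgeber time (ZT, hours after lights on) 0, 4, 8, 12, 16 and 20, with 3 IP libraries per time point and 1 cord per library, and 1 further library held pooled input RNA of whole cord. All mice carried the same alleles and there was no mutant or untagged control, so each comparison below is between times of day or between IP and input.

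The 18 IP libraries held between 6302150 and 22406844 counts (median 15014112) and the input held 15239792. Levels are given as CPM, the counts of a gene scaled to a common library total. Of 7 markers of cholinergic neurons, 6 were at least 2-fold above the input with all 18 IPs above it, while all 7 oligodendrocyte, all 6 astrocyte and all 6 microglia markers were at least 2-fold below it. None of these marker genes was at 0 in all 3 IP libraries of any time point. The summed oligodendrocyte level still ran from 1502.6 to 2875.7 CPM over the IPs against 4208.8 to 5027.3 CPM for the cholinergic sum. A single component held 52.8% of the variance between IPs over 9214 genes, and its mean ran from -16.5 at ZT0 to 25.8 at ZT8, with an SD of 19.1 (n = 3) at ZT8. Genes with any count numbered 17787, 17500 and 17620 in the ZT8 libraries and 19322, 17977 and 19822 in those of ZT0. The fewest were 16484, in ZT4 replicate 3, which held 6651452 counts. The part of these differences in the component was not tested.

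All 9 genes passed the filter on low counts in the time comparison, in which 15572 genes were tested with edgeR. Per kilobase of the longest coding transcript, Hnrnpa2b1 stood highest at 189 ± 32.1 CPM per kb (SD, n = 18), followed by Ewsr1 at 59.4 ± 8.20 and Hnrnpa1 at 51.5 ± 9.80. Tia1 was lowest at 2.09 ± 0.622 CPM per kb. The remaining 5 lay between 11.9 ± 1.99 CPM per kb for Atxn2 and 30.2 ± 9.38 for Taf15. Hnrnpa2b1 was also highest and Tia1 lowest when every annotated exon was counted as length, whereas Ewsr1 and Hnrnpa1, whose spreads overlap, then changed places at 26.0 ± 3.59 and 31.3 ± 5.96 CPM per kb. Counting precision followed the level, since Tia1 had 33 to 269 counts per IP library against 1863 to 8690 for Hnrnpa2b1.

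**Figure D1:**
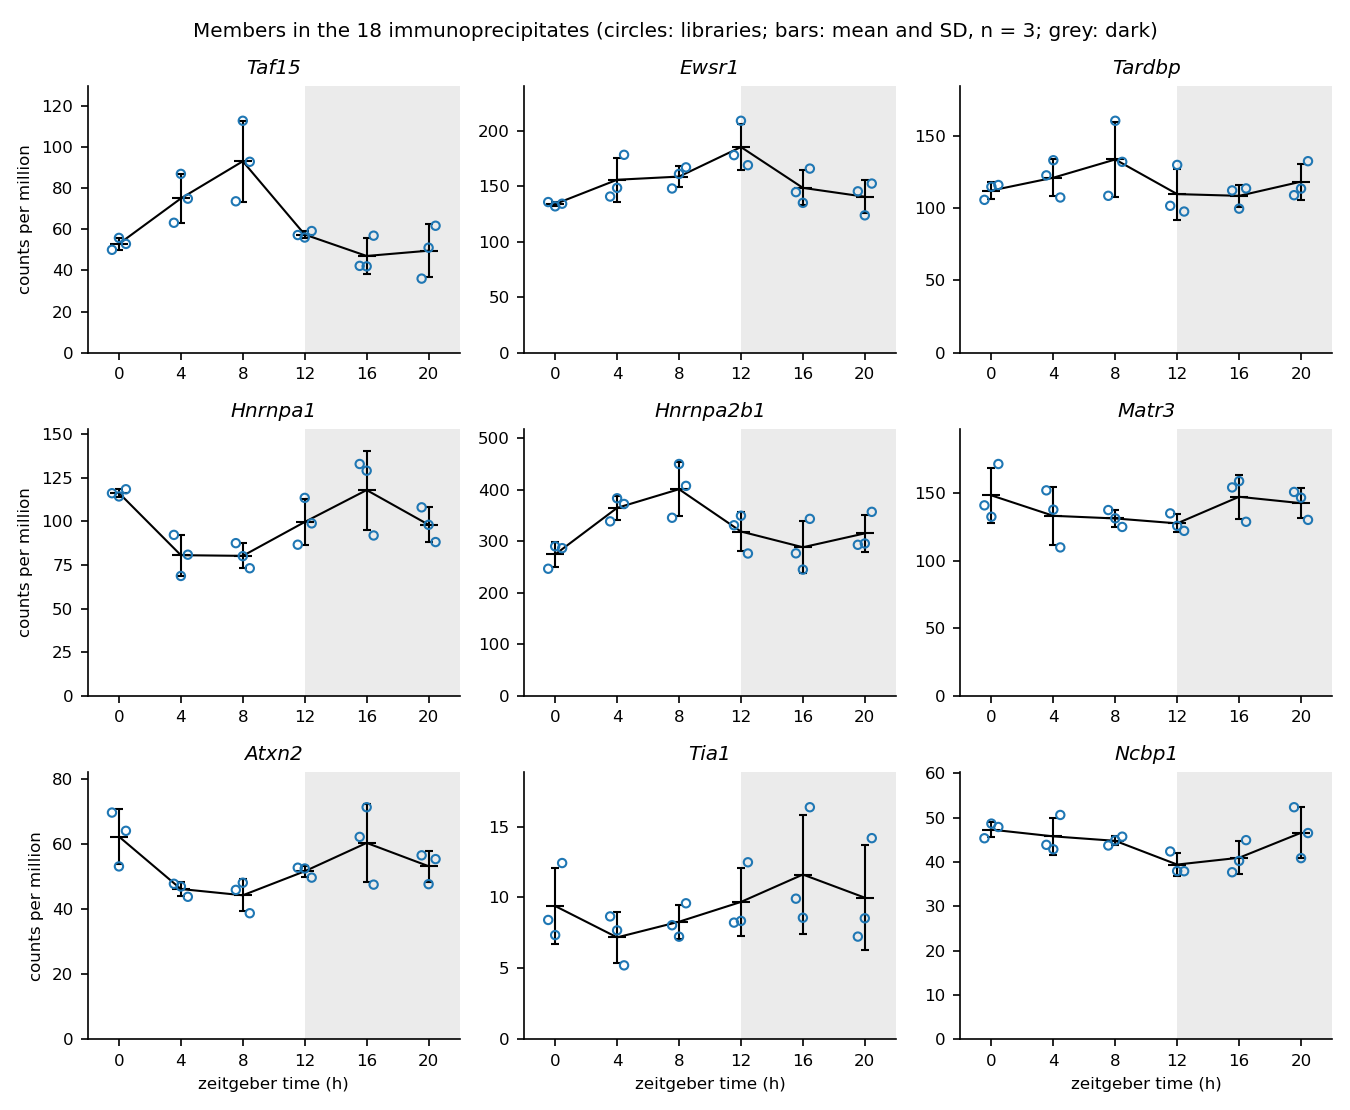
Level in CPM (vertical axis) of each of the 9 genes against zeitgeber time in hours (horizontal axis), with 1 circle per IP library and the mean and SD of 3 libraries in black. Taf15 and Hnrnpa2b1 are highest at ZT8, where Hnrnpa1 and Atxn2 are lowest, and Ewsr1 is highest at ZT12.

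The first question was whether the level of each mRNA in the IPs followed the time of day. A cosine with a 24-h period was called at an adjusted p under 0.05 for 2 of the 9 genes, Taf15 and Ewsr1, beside 6.24% of all genes tested. A test for any difference among the 6 time points called 2 of 9, Taf15 and Hnrnpa1, beside 6.74% of all genes. With the rank-based JTK_Cycle, none of the 9 passed adjustment over all genes, beside 0.0385% of all genes, while 5 of 9 (Taf15, Hnrnpa1, Ewsr1, Hnrnpa2b1 and Atxn2) had a p under 0.05 when adjusted within the gene alone, beside 15.8% of all genes. At an unadjusted edgeR p under 0.05, the cosine held for 6 of the 9 and for 4153 of all genes. The number of members called moved with single libraries, as did the number of all genes called. For the cosine it fell to 1 of 9, Taf15, without ZT0 replicate 1, ZT0 replicate 3, ZT4 replicate 1, ZT12 replicate 2 or ZT20 replicate 2, where 125 to 804 of all 15572 genes were called in place of 972, and to 0 without ZT0 replicate 2, ZT4 replicate 2, ZT4 replicate 3, ZT8 replicate 2, ZT8 replicate 3, ZT12 replicate 1, ZT16 replicate 1, ZT16 replicate 2 or ZT20 replicate 1, where 2 to 5 of all genes were called. It rose to 4 without ZT16 replicate 3 or ZT20 replicate 3, where 1592 and 2746 of all genes were called. The time-point calls fell from 2 to 0 without ZT8 replicate 2 or ZT8 replicate 3, where all genes called fell from 1050 to 52 and 5. They fell to 1, Taf15, without any one of the ZT0 libraries, ZT4 replicate 2, ZT4 replicate 3, ZT16 replicate 1, ZT16 replicate 2 or ZT20 replicate 2, with 71 to 853 of all genes called, and rose to 4 without ZT8 replicate 1 and to 5 without ZT16 replicate 3, with 2480 and 2090 of all genes called. The JTK_Cycle count rose to 3 (Taf15, Hnrnpa1 and Atxn2) without ZT16 replicate 3, where all genes called rose from 6 to 740. These counts thus moved with the share of all genes called and are not a result about the members.

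Between pairs of time points, 4 of the 9 genes were called at ZT8 against ZT0, beside 18.0% of all genes. Taf15 and Hnrnpa2b1 were higher at ZT8, beside 8.95% of all genes, and Hnrnpa1 and Atxn2 were lower, beside 9.02%. The same 4 genes were called at ZT16 against ZT8, beside 16.9% of all genes, with Hnrnpa1 and Atxn2 now higher (9.11% of all genes) and Taf15 and Hnrnpa2b1 lower (7.80%). Both comparisons use the 3 ZT8 libraries and so are not independent. At ZT20 against ZT8 none of the 9 was called by edgeR, beside 0% of all genes, although 2 of the 9 and 3474 of all genes had an unadjusted p under 0.05, and DESeq2 called Taf15. At ZT12 against ZT0 none of the 9 was called either, beside 0.0321% of all genes, with 2 of the 9 and 1183 of all genes at an unadjusted p under 0.05, and DESeq2 called Ewsr1.

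**Figure D2:**
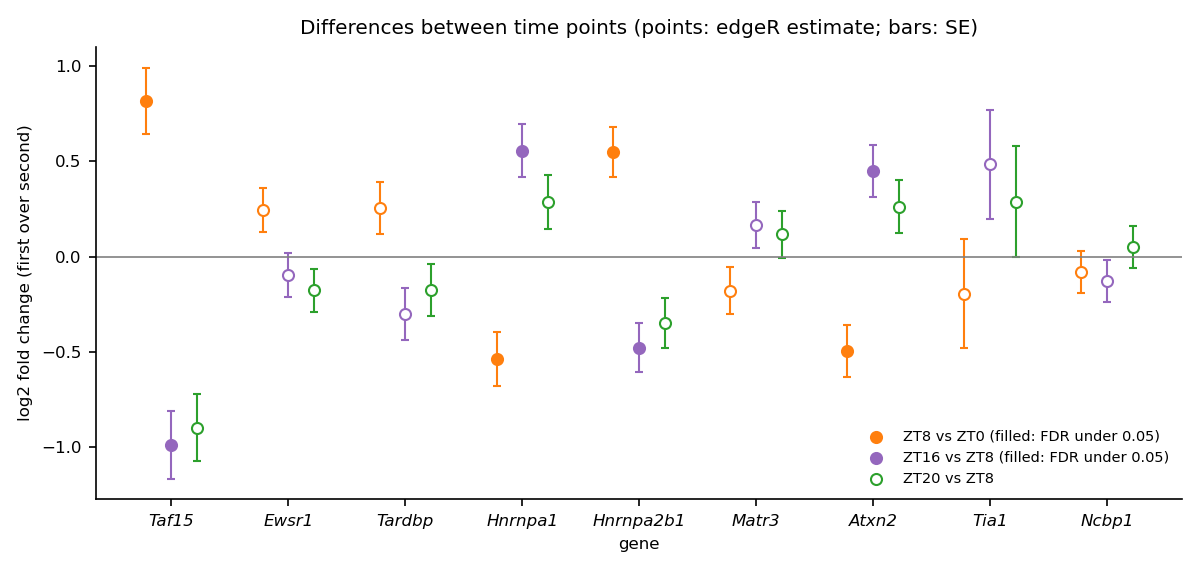
Log2 fold change from edgeR (vertical axis) with its standard error for each gene (horizontal axis) in 3 comparisons of time points, with filled points for an adjusted p under 0.05. Taf15 and Hnrnpa2b1 lie above 0 and Hnrnpa1 and Atxn2 below 0 at ZT8 against ZT0, and the same 4 lie on the other side of 0 at ZT16 against ZT8.

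The pair calls also moved with single libraries, again beside the calls over all genes. At ZT8 against ZT0 the count fell from 4 to 0 without ZT8 replicate 2, to 1 (Taf15) without ZT0 replicate 1, and to 2 (Taf15 and Hnrnpa2b1) without ZT0 replicate 3 or ZT8 replicate 3. All genes called in these fits fell from 2798 to 319, 617, 1138 and 1207 in that order. At ZT16 against ZT8 it fell from 4 to 0 without ZT16 replicate 2 and to 1 (Taf15) without ZT8 replicate 2, ZT8 replicate 3 or ZT16 replicate 1, where all genes called fell from 2633 to 37, 87, 1034 and 962. With only the 6 libraries of both time points in the fit, ZT8 against ZT0 still gave 4 calls (1912 over all genes) and ZT16 against ZT8 gave 0 (1 over all genes). At ZT20 against ZT8 the count rose to 2 (Taf15 and Hnrnpa2b1) without ZT8 replicate 1 and to 1 (Taf15) without ZT16 replicate 3, with 2389 and 621 of all genes called in place of 0.

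Taf15 and Ewsr1 belong to the FET family of nuclear RNA- and DNA-binding proteins that act in transcription and splicing. Taf15 (chr11:83473073-83506743, plus strand, GRCm38) had the largest fitted swing of the 9 genes, with a log2 amplitude of 0.46, a fitted peak at ZT6.67 and an adjusted p of 0.0373 in edgeR. Its 3 libraries read 50.0, 55.8 and 52.9 CPM at ZT0, 63.2, 86.9 and 74.9 CPM at ZT4, and 73.6, 113 and 92.8 CPM at ZT8. Every ZT8 library was thus above every ZT0 library. The level was 57.2, 56.0 and 59.2 CPM at ZT12, 42.2, 42.0 and 56.9 CPM at ZT16, and 36.0, 51.0 and 61.7 CPM at ZT20. The ZT8 libraries did not overlap those of ZT0, ZT12, ZT16 or ZT20, but they overlapped those of ZT4. Taf15 was higher at ZT8 than at ZT0 by 0.82 on the log2 scale (SE 0.17, 1.76-fold, adjusted p = 0.00722 in edgeR), and 2.03% of all genes had a smaller p in that comparison. Against ZT8, it was lower at ZT16 by a log2 difference of -0.99 (SE 0.18, edgeR adjusted p = 0.00599) and differed by -0.90 (SE 0.18) at ZT20, where the adjusted p was 0.0587. The call at ZT8 against ZT0 was lost without ZT8 replicate 2 (log2 0.65, adjusted p = 0.0578), and that at ZT16 against ZT8 without ZT16 replicate 2 (log2 -0.91, adjusted p = 0.0524).

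Ewsr1 (chr11:5069687-5099107, minus strand) was highest at ZT12 and not at ZT8. Its libraries read 178, 209 and 169 CPM at ZT12 against 136, 132 and 134 CPM at ZT0, with no overlap. At ZT8 they read 148, 161 and 167 CPM, all below those of ZT12. The summed level of 4 erythrocyte markers was also highest at ZT12, at 597 to 750 CPM against 208 to 431 CPM over the libraries of all other times, and its part in the Ewsr1 level was not tested. The fitted cosine peaked at ZT10.5 with a log2 amplitude of 0.19 and an adjusted p of 0.0488 in edgeR. This call lay close to the threshold. When single libraries or replicate numbers were left out, the adjusted p ranged from 0.0200 to 0.541. The call was kept in only 4 of 21 such fits and lost in the rest. At ZT12 against ZT0 the log2 difference was 0.47 (SE 0.11, adjusted p = 0.399), and only 0.128% of all genes had a smaller p. Rhbdd3, a protein-coding gene on the opposite strand that overlaps Ewsr1, stood at 29.8 CPM.

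The ratio of Taf15 to Ewsr1 within a library does not depend on the scaling. The mean ratio of CPM was 0.396 at ZT0, 0.485 at ZT4 and 0.585 at ZT8, and 0.313 at ZT12, 0.315 at ZT16 and 0.355 at ZT20. The 3 ZT8 libraries, at 0.498, 0.701 and 0.556, lay above all 9 libraries of ZT12, ZT16 and ZT20. No test was made of these ratios.

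Hnrnpa1 and Hnrnpa2b1 encode hnRNP A1 and hnRNP A2/B1, abundant nuclear proteins of similar build that control splicing and carry mRNAs, and both are mutated in rare families with muscle, bone and motor neuron disease. In these IPs their mRNAs moved in opposite directions. Hnrnpa2b1 (chr6:51460434-51470048, minus strand) read 246, 290 and 286 CPM at ZT0, 338, 383 and 372 CPM at ZT4, and 345, 450 and 407 CPM at ZT8. At ZT12 it read 331, 349 and 276 CPM, at ZT16 276, 245 and 343 CPM, and at ZT20 293, 295 and 357 CPM. The ZT8 libraries lay above all of ZT0 and ZT16 and overlapped those of ZT4, ZT12 and ZT20. Hnrnpa2b1 was higher at ZT8 than at ZT0 by 0.55 on the log2 scale (SE 0.13, 1.46-fold, edgeR adjusted p = 0.00974) and lower at ZT16 than at ZT8 by a log2 difference of -0.48 (SE 0.13, edgeR adjusted p = 0.0186). The first call was lost without ZT0 replicate 1 (log2 0.48, adjusted p = 0.0619) or ZT8 replicate 2 (0.46, 0.0697). The second was lost without ZT8 replicate 2, ZT8 replicate 3, ZT16 replicate 1 or ZT16 replicate 2, with the adjusted p between 0.0630 and 0.122. The cosine had a log2 amplitude of 0.21, a fitted peak at ZT7.31 and an adjusted p of 0.0679.

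Hnrnpa1 (chr15:103239943-103246698, plus strand) read 116, 114 and 118 CPM at ZT0, 92.2, 68.7 and 80.9 CPM at ZT4, and 87.5, 80.0 and 73.1 CPM at ZT8. At ZT12 it read 86.6, 113 and 98.8 CPM, at ZT16 133, 129 and 91.9 CPM, and at ZT20 between 88.1 and 108 CPM. The ZT8 libraries lay below all those of ZT0, ZT16 and ZT20. Hnrnpa1 was lower at ZT8 than at ZT0 by a log2 difference of -0.54 (SE 0.14, edgeR adjusted p = 0.0142) and higher at ZT16 than at ZT8 by 0.56 (SE 0.14, 1.47-fold, edgeR adjusted p = 0.0129). The first call was lost without ZT0 replicate 1, ZT0 replicate 3, ZT8 replicate 2 or ZT8 replicate 3, with the adjusted p between 0.0535 and 0.0684, and the second without ZT8 replicate 2, ZT8 replicate 3, ZT16 replicate 1 or ZT16 replicate 2, with the adjusted p between 0.0646 and 0.0805. Its cosine peaked at ZT18.6 with a log2 amplitude of 0.25 and an adjusted p of 0.0664. The expected counts of Hnrnpa1 were not whole numbers in any of the 19 libraries, while those of the other 8 genes were whole in every library, so part of its reads was shared with other sequences and its level is uncertain.

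The ratio of Hnrnpa2b1 to Hnrnpa1 was highest at ZT4 and ZT8 and lowest at ZT0, with no test made. Its mean was 2.36 at ZT0, 4.62 at ZT4 and 5.04 at ZT8, then 3.23 at ZT12, 2.57 at ZT16 and 3.26 at ZT20. The ZT8 libraries, at 3.95, 5.62 and 5.57, did not overlap those of ZT0, at 2.12, 2.54 and 2.42. The ratio at ZT16 spread widely, from 1.90 to 3.74.

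**Figure D3:**
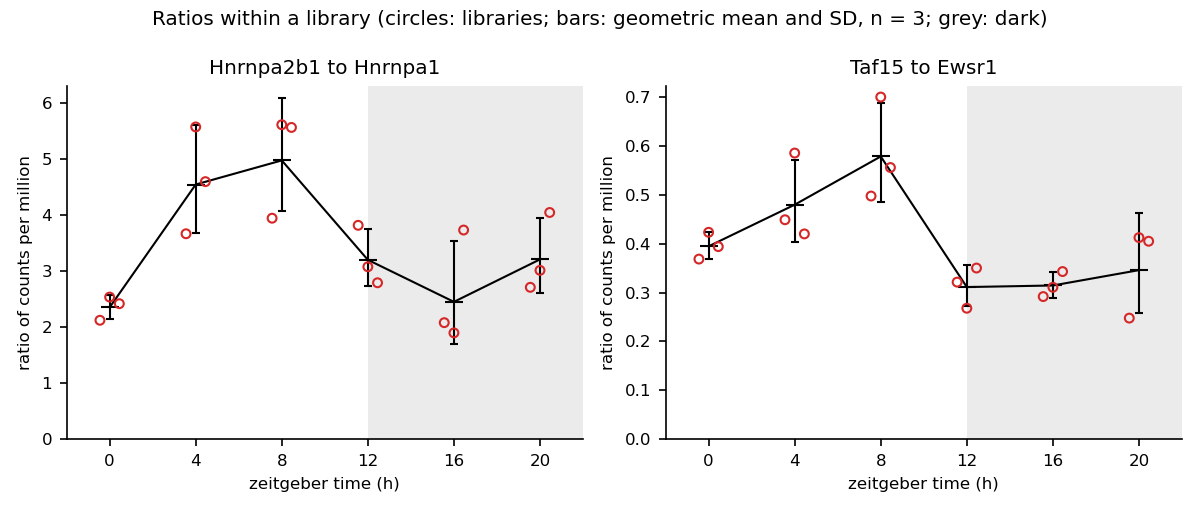
Ratio of CPM within a library (vertical axes) against zeitgeber time in hours, for Hnrnpa2b1 to Hnrnpa1 on the left and Taf15 to Ewsr1 on the right, with 1 circle per library and the geometric mean and SD of 3 libraries. Both ratios are highest at ZT8; the first is lowest at ZT0 and the second at ZT12.

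Among 25 other hnRNP genes, all tested, 2 passed the cosine test and 3 the time-point test, beside 6.24% and 6.74% of all genes. At ZT8 against ZT0, 3 were higher and 4 lower, beside 8.95% and 9.02% of all genes. The median log2 difference of the 25 was 0.03, beside -0.0030 for all genes. Hnrnpa0, a close relative of both, was higher at ZT8 by 0.52 (edgeR adjusted p = 0.00762), with a cosine peaking at ZT7.05 (adjusted p = 0.0373). Hnrnpm, a splicing regulator, was higher by 0.60 (edgeR adjusted p = 0.00982), and Hnrnph1, which binds G-rich RNA, by 0.35 (edgeR adjusted p = 0.0456). Hnrnpf, its relative, was lower by a log2 difference of -0.41 (edgeR adjusted p = 0.0315), with a cosine peaking at ZT19.7 (adjusted p = 0.0455).

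Tardbp encodes TDP-43, a repressor of cryptic exons, and Matr3 encodes matrin 3, a nuclear matrix protein that binds RNA and DNA. Neither was called in any edgeR comparison with all libraries in the fit. Tardbp (chr4:148612382-148627084, minus strand) read 109, 160 and 132 CPM at ZT8, 106, 115 and 116 CPM at ZT0 and 112, 99.6 and 114 CPM at ZT16. The ZT8 libraries thus overlapped those of both other times, and the highest and the lowest of them differed more than any pair of time-point means. Its log2 differences were 0.25 (SE 0.14, adjusted p = 0.210) at ZT8 against ZT0 and -0.30 (SE 0.14, adjusted p = 0.133) at ZT16 against ZT8. Without ZT8 replicate 1 these were 0.39 (adjusted p = 0.0392) and -0.43 (adjusted p = 0.0221), both past the threshold. Tardbp had the lowest log2 cosine amplitude of the 9, at 0.10 (adjusted p = 0.481).

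Matr3 ranged from 110 to 172 CPM over the 18 IPs, with a median of 136. Its time-point means lay between 128 ± 6.66 CPM (SD, n = 3) at ZT12 and 148 ± 20.6 CPM at ZT0, and the libraries of these 2 times overlapped. The log2 cosine amplitude was 0.10 (adjusted p = 0.347). Among 9 other genes of paraspeckles and the nuclear matrix, all tested, none passed the cosine or time-point test in edgeR, beside 6.24% and 6.74% of all genes. An unadjusted cosine p under 0.05 was found for 2 of the 9, beside 4153 of all 15572 genes. At ZT8 against ZT0, 2 were lower, beside 9.02% of all genes. These were Scaf8, which binds the tail of RNA polymerase II, with a log2 difference of -0.91 (edgeR adjusted p = 0.0110), and the nucleoporin Nup153 with -0.68 (edgeR adjusted p = 0.0433).

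Atxn2 and Tia1 encode proteins found in stress granules, the cytoplasmic bodies that hold untranslated mRNA in stressed cells. Atxn2 (chr5:121711609-121814950, plus strand), whose product ataxin-2 binds poly(A)-binding protein and modifies ALS risk when its glutamine tract is long, read 69.8, 53.2 and 64.1 CPM at ZT0, 47.8, 47.0 and 43.8 CPM at ZT4, and 46.0, 48.2 and 38.8 CPM at ZT8. At ZT12 it read 52.8, 52.5 and 49.7 CPM, at ZT16 62.3, 71.4 and 47.6 CPM, and at ZT20 56.6, 47.7 and 55.4 CPM. All ZT8 libraries lay below those of ZT0 and ZT12 but overlapped those of ZT4, ZT16 and ZT20. Atxn2 was lower at ZT8 than at ZT0 by a log2 difference of -0.50 (SE 0.14, edgeR adjusted p = 0.0183) and higher at ZT16 than at ZT8 by 0.45 (SE 0.14, edgeR adjusted p = 0.0300). The first call was lost without ZT0 replicate 1, ZT0 replicate 3, ZT8 replicate 2 or ZT8 replicate 3 (adjusted p between 0.0578 and 0.102), and the second without ZT8 replicate 2, ZT8 replicate 3, ZT16 replicate 1 or ZT16 replicate 2 (between 0.0680 and 0.206). Its cosine peaked at ZT19.5 with a log2 amplitude of 0.21 and an adjusted p of 0.0967. Its relative Atxn2l, not a member, had a mean of 45.3 ± 4.77 CPM at ZT0 and 28.2 ± 12.4 CPM at ZT8 (SD, n = 3).

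Tia1 (chr6:86404203-86433405, plus strand), whose product starts the assembly of stress granules, ranged from 5.20 to 16.4 CPM with a median of 8.47, the least abundant of the 9. Its time-point means ran from 7.18 ± 1.78 CPM at ZT4 to 11.6 ± 4.17 CPM at ZT16 (SD, n = 3), and these libraries overlapped. The ratio of Tia1 to its relative Tial1 ran from a mean of 0.369 at ZT4 to 0.537 at ZT8, and its libraries at these times overlapped. No edgeR comparison called Tia1, and its log2 amplitude of 0.28 (adjusted p = 0.216) was the second largest of the 9, on the lowest counts. Its level ran with the oligodendrocyte marker score rather than the cholinergic score across the 18 IPs (Pearson r of 0.62 and 0.15).

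Among 16 other stress granule genes, all tested, 2 passed the cosine test and 3 the time-point test, beside 6.24% and 6.74% of all genes. At ZT8 against ZT0, 1 was higher and 4 lower, beside 8.95% and 9.02% of all genes. The median log2 difference of the 16 was -0.13. Pabpc1, the cytoplasmic poly(A)-binding protein, was lower at ZT8 by a log2 difference of -0.82 (edgeR adjusted p = 0.0118), with a cosine peaking at ZT18.9 (adjusted p = 0.0406). Ubap2l, a granule scaffold, was lower by the same -0.82 (edgeR adjusted p = 0.0116). Ddx6, an RNA helicase of P-bodies, was higher by 0.70 (edgeR adjusted p = 0.00611). Usp10, a partner of G3BP proteins, passed the cosine test (amplitude 0.18, peak ZT22.2, adjusted p = 0.0430).

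Ncbp1 (chr4:46138511-46172403, plus strand) had the narrowest range of the 9, from 37.7 to 52.4 CPM with a median of 44.4, a ratio of 1.39 between its highest and lowest library. It read 45.3, 48.7 and 47.9 CPM at ZT0 against 42.4, 37.9 and 37.9 CPM at ZT12, without overlap. The log2 difference at ZT12 against ZT0 was -0.26 (SE 0.11, adjusted p = 0.634), and the cosine, with an amplitude of 0.13 and a peak at ZT0.952, had an adjusted p of 0.152. Its partner Ncbp2, the small subunit that holds the cap, had a mean of 39.3 ± 2.27 CPM at ZT0 and 50.6 ± 7.02 CPM at ZT8 (SD, n = 3), so that the mean ratio of Ncbp1 to Ncbp2 was 1.21 at ZT0 and 0.896 at ZT8. Among 12 other genes of cap binding and mRNA export, all tested, 1 passed the cosine test and 2 the time-point test, beside 6.24% and 6.74% of all genes. At ZT8 against ZT0, 2 were higher and 1 lower, beside 8.95% and 9.02% of all genes. Ncbp3, an alternative cap-binding subunit, was higher by 0.56 (edgeR adjusted p = 0.0253) and Thoc5, of the THO export complex, was lower by a log2 difference of -0.72 (edgeR adjusted p = 0.00523). Of 7 other ALS-linked genes of RNA metabolism, 6 were tested, and this list shares a gene with the hnRNP list. None passed the cosine or time-point test in edgeR, beside 6.24% and 6.74% of all genes. An unadjusted cosine p under 0.05 was found for 3 of the 6, beside 4153 of all 15572 genes. At ZT8 against ZT0, 2 of the 6 were higher and 1 lower, beside the same shares of all genes as above. Snrnp70, a U1 snRNP subunit, was higher by 0.93 (edgeR adjusted p = 0.00860). Its edgeR adjusted p was 0.05002 for the cosine and 0.0503 for the time points, both just over the threshold.

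The 4 genes called between time points moved with the main axis of variation between libraries, as did Tardbp, which was not called. Over the 18 IPs the Pearson r with the first component was 0.97 for Hnrnpa2b1, 0.91 for Taf15, -0.88 for Hnrnpa1, -0.78 for Atxn2 and 0.72 for Tardbp, against -0.56 for Matr3, 0.45 for Ewsr1, -0.22 for Tia1 and 0.21 for Ncbp1. Of all genes, 1.38% had a larger r in size with the component than Hnrnpa2b1, and 49.3% than Ewsr1. The mean log2 level of the 7 cholinergic markers moved with the same axis and was 7.04 ± 0.32 at ZT8, against 7.63 ± 0.09 at ZT0 and 7.65 ± 0.27 at ZT16 (SD, n = 3). Its r was -0.96 with Hnrnpa2b1, -0.90 with Taf15, 0.86 with Hnrnpa1, -0.75 with Tardbp and 0.69 with Atxn2. The summed level of these markers was 4230 to 4685 CPM at ZT8 and 4295 to 4768 CPM at ZT0, which overlap. The mean log2 level of the 7 oligodendrocyte markers was 6.65 ± 0.20 at ZT8, 6.83 ± 0.13 at ZT0 and 6.94 ± 0.25 at ZT16 (SD, n = 3). In bulk IPs, fewer cholinergic cells in a sample, less RNA per cell and the purity of the pull-down cannot be told apart. Nor can a change of the marker mRNAs themselves with time of day. These r values share libraries, depth and scaling, and are given as a description.

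With the cholinergic score as a covariate, a fit chosen after seeing the data, the log2 difference of Taf15 at ZT8 against ZT0 was 0.26 (edgeR adjusted p = 0.878) and that of Hnrnpa2b1 was 0.11 (0.943). The count of members called was 0 in every edgeR comparison with this covariate or with the first component, and the number of all genes called at ZT8 against ZT0 fell to 1 and 2. With the oligodendrocyte score as the covariate, the 4 calls at ZT8 against ZT0 stayed, while those at ZT16 against ZT8 fell to Taf15 and Hnrnpa1, and the cosine and time-point calls fell to 0. All genes called fell too, to 339 at ZT16 against ZT8, 2 for the cosine and 0 for the time points. The sizes changed less, with a log2 amplitude of 0.44 for Taf15 and 0.20 for Ewsr1, and log2 differences at ZT16 against ZT8 of -0.53 for Hnrnpa2b1 (edgeR adjusted p = 0.0696) and 0.55 for Atxn2 (edgeR adjusted p = 0.0614). The marker scores and the component were computed from these same libraries, and the cholinergic score and the component differed between ZT0 and ZT8. A fit with either takes up part of the time difference itself, so smaller differences and lost calls follow in part from how it is built. The part of the marker level or of the component in these results was not tested.

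**Figure D4:**
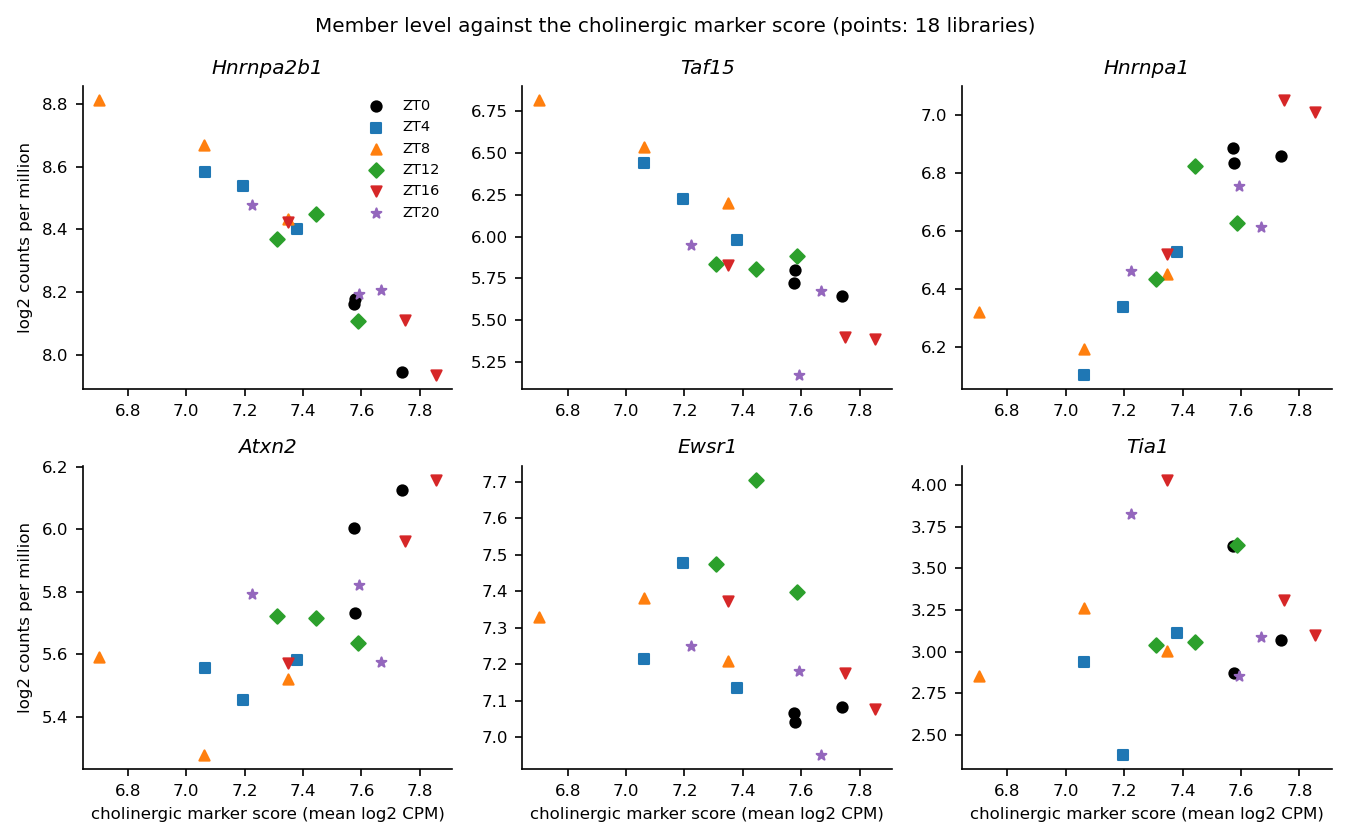
Log2 CPM (vertical axes) of 6 of the genes against the cholinergic marker score, the mean log2 CPM of 7 markers (horizontal axes), with 1 point per IP library and the shape and colour giving the time point. Hnrnpa2b1 and Taf15 fall and Hnrnpa1 and Atxn2 rise along the score (r of -0.96, -0.90, 0.86 and 0.69), while Ewsr1 and Tia1 scatter (r of -0.46 and 0.15).

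Some of the 9 genes moved together and some against each other, while Tia1 and Ncbp1 each had an r of -0.24 as their largest in size with any member. The highest r between members over the 18 IPs was 0.85, for Taf15 with Hnrnpa2b1, followed by 0.82 for Hnrnpa1 with Atxn2. The lowest were -0.84 for Hnrnpa1 with Hnrnpa2b1 and -0.83 for Taf15 with Hnrnpa1. The genes of all tested whose log2 level was most like that of a member by Pearson r over the 18 IPs, among those with a mean log2 CPM of at least 3, were Rpl22, Rpl32 and Set for Taf15 (0.94, 0.93 and 0.93), and Zmat2, Cstb and Ndufb10 for Hnrnpa2b1 (0.98, 0.98 and 0.98). For Hnrnpa1 they were Armcx2, Cops3 and Rnf6 (0.95, 0.94 and 0.94) and for Atxn2 Dcun1d2 and Cdk14 (0.88 and 0.88). For Ewsr1 they were Upf3a, Dbp and Blmh (0.88, 0.84 and 0.84), of which Dbp is a clock-controlled transcription factor. The values for Tardbp were 0.94 (Mllt11), 0.90 (Ssr1) and 0.90 (Pank2), and for Matr3 0.87 (Atad1), 0.85 (Cntn1) and 0.85 (Vstm2a). For Tia1 they were 0.81 (Hapln2), 0.78 (Clk1) and 0.77 (Pnisr), and for Ncbp1 0.78 (Ccdc28b), 0.78 (Gal3st1) and 0.77 (Unc5b). Of these neighbours, Rpl22 is the gene that carries the HA tag in these mice, and Taf15 itself had an r of 0.91 with the first component.

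Since some members moved together, the promoters were read for short sequences bound by clock factors, in windows from 250 bases before to 50 after each gene start in RefSeq (GRCm38.p6). Windows were held for 8 of the 9 genes, 10 windows in all. The E-box CACGTG, bound by CLOCK and BMAL1, lay in 1 member, Atxn2, 152 bases before its start, and the D-box pattern TTANNTAA, of the kind bound by DBP and its relatives, in 1 member, Hnrnpa2b1, 31 or 80 bases before its 2 listed starts. The sites are shown 5′ to 3′ with 10 bases on either side and the motif in capitals, the first at chr5:121711457-121711462 on the plus strand and the second at chr6:51469918-51469925 on the minus strand.
Atxn2: ccccgctcctCACGTGtccctgatcg
Hnrnpa2b1: gttagggcgtTTACGTAAcggcgtgacg
Of all 32851 windows, 7.15% held CACGTG and 6.0% held TTANNTAA, both of which read the same on both strands apart from the free bases. AGGTCA, the half-site of the ROR and REV-ERB receptors, searched on both strands, and TGACGTCA, the element bound by CREB, lay in 0 of the 10 windows, against 16.3% and 1.79% of all windows. The 2 genes with a motif are 1 that was higher and 1 that was lower at ZT8 than at ZT0, and the matches are a description of the letters, not of binding.

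The second question was how the IPs compared with whole spinal cord. There was 1 input library, so no test was made, and a gene was counted as off the input when the mean of the IPs differed from it at least 2-fold and all 18 IPs lay on that side. Of all 21169 genes compared, 21.1% were below by this rule and 11.6% above. Of the 9 members, 1 was below, Tia1, and 0 were above. In the input Tia1 stood at 29.2 CPM, for which counting error alone gives a 95% Poisson range from 26.8 to 31.8, while the IPs averaged 9.46 ± 2.83 CPM (SD, n = 18), a log2 ratio of -1.63. All 18 IPs were below the input.

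The other members lay closer to the input. Taf15 had the highest log2 ratio, 0.75, with 17 of 18 IPs above the input (63.2 ± 19.4 CPM against 37.6), followed by Hnrnpa2b1 with 0.56 (330 ± 54.9 CPM against 224), Ewsr1 with 0.43, Ncbp1 with 0.43 and Tardbp with 0.34, each with 18 of 18 above. Hnrnpa1 had a log2 ratio of -0.32 with 2 of 18 above, Matr3 of -0.56 and Atxn2 of -0.59 with 0 of 18 above. Thus the 2 hnRNP A members lay on opposite sides of the input, as did Taf15 and Matr3. The median log2 ratio of the 9 was 0.34, against -0.27 for all genes compared and 0.03 for the genes also tested over time. Scaling by library totals lowered each ratio, to 0.02 for Tardbp, 0.10 for Ncbp1, 0.11 for Ewsr1, 0.23 for Hnrnpa2b1 and -0.91 for Atxn2, without a change of sign.

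**Figure D5:**
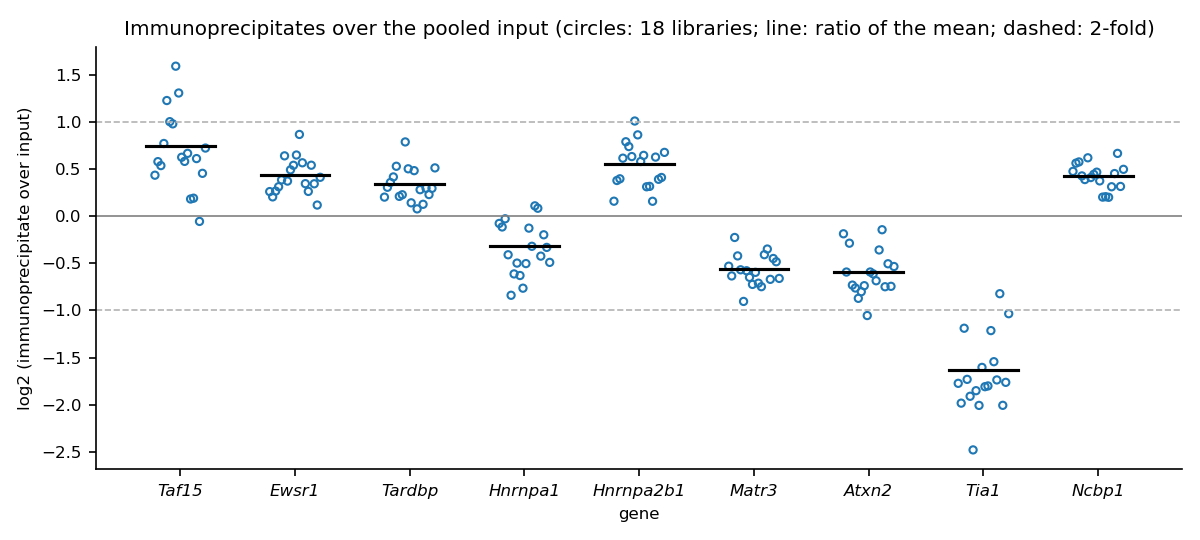
Log2 ratio of each of the 18 IP libraries to the pooled input (vertical axis) for each gene (horizontal axis), with circles for libraries, a black line for the ratio of the mean and dashed lines at 2-fold. Tia1 lies lowest at -1.63, Taf15, Ewsr1, Tardbp, Hnrnpa2b1 and Ncbp1 lie above 0 on average, and Hnrnpa1, Matr3 and Atxn2 below.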

How the data were processed

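Ribosome-bound mRNA from ChAT-Cre RiboTag spinal cords at 6 zeitgeber times (3 libraries each) and 1 pooled input was sequenced by the authors with 150-base paired reads after poly(A) selection. Per the study's methods the reads were aligned with STAR 2.7.5 to mm10 and counted with RSEM, and the deposited values are expected counts per gene, not normalised. Reads shared between similar sequences are split by estimate, so such counts need not be whole. Every column of the table matched a sample.

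Expected counts were rounded to whole numbers before scaling and every fit. The IPs were filtered with filterByExpr, scaled by TMM and fitted with edgeR 4.0.16 (quasi-likelihood; R 4.3.3) on all 18 IPs, as a cosine of 24 h, as 6 time points, and as pairs of time points, with Benjamini-Hochberg adjustment over 15572 genes and a threshold of 0.05. A log2 amplitude is the height of the cosine above its mean. JTK_Cycle was rebuilt with 18 templates (periods of 20, 24 and 28 h, exact null). The input was compared over genes with at least 10 counts in the 19 libraries, scaled separately, so that IP means differ slightly from those over time. The fits were run on simulated counts with known rhythms. These counts were drawn independently for each gene and library. They lack the component shared by the real libraries and so do not test its effect on the calls. DESeq2 1.42.0, other scalings, filters, a replicate block, marker covariates and left-out libraries were tried as alternatives.

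The members and the gene and marker lists were chosen with earlier results of these data known. Genes named outside the members were, per list, up to 5 with the lowest p among those called by the cosine or time-point test or up to 2 where none was called, the 3 genes most correlated with each member, and one relative each for Tia1, Atxn2 and Ncbp1. Of the genes this rule names, 2 are not reported here. Replicate numbers are in the sample names only, and no source says that a number marks a shared litter or batch. Libraries came from separate cords. Coordinates are from RefSeq (GRCm38), while strands, lengths and overlapping genes are from GENCODE.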

Additional observations from a re-analysis of the deposited data

How the results depend on the processing

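The counts of members called moved with most choices that touch the threshold, and the cause was not tested unless stated. For the 24-h cosine (2 members) the count was 1 with library totals, with the upper quartile, with a filter of at least 10 counts and with the replicate block, 4 with DESeq2, 5 with a filter of at least 1 count, and 0 with the oligodendrocyte score, the cholinergic score or the first component as a covariate. For the time-point test (2 members) it was 5 with DESeq2 and with a filter of at least 1 count, and 0 with each of these 3 covariates. All genes called rose with DESeq2 from 972 to 2312 for the cosine and from 1050 to 2502 for the time points, and with a filter of at least 1 count to 2349 and 2767. With library totals, the upper quartile, a filter of at least 10 counts and the replicate block, 876, 938, 1031 and 774 of all genes passed the cosine. With the oligodendrocyte score, the cholinergic score and the first component, 2, 9 and 11 passed the cosine and 0, 12 and 18 the time-point test. At ZT8 against ZT0 (4 members) the count was 0 with the first component and 0 with the cholinergic score, with 2 and 1 of all genes called. At ZT16 against ZT8 (4 members) it was 2 with the oligodendrocyte score, 0 with the first component, 0 with the cholinergic score, and 0 with only the 6 libraries of both time points, where fewer samples enter the fit. All genes called in these fits were 339, 2, 0 and 1 in that order. At ZT20 against ZT8 (0 members) the count of members was 1, Taf15, with DESeq2, with either other filter and with the replicate block, where all genes called were 1114, 154 (at least 10 counts), 1641 (at least 1 count) and 7, and at ZT12 against ZT0 (0 members) it was 1, Ewsr1, with DESeq2 and with a filter of at least 1 count, where all genes called were 28 and 187. JTK_Cycle (0 members) gave 5 with adjustment within the gene alone and 1, Taf15, with the replicate block, with 2464 and 356 of all genes called. At a threshold of 1.5-fold, 2 members (Tia1 and Atxn2) lay off the input instead of 1, beside 9361 of all genes in place of 6924.

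When single libraries or replicate numbers were left out, the count ran from 0 to 4 for the cosine, from 0 to 5 for the time points, from 0 to 5 at ZT8 against ZT0, from 0 to 5 at ZT16 against ZT8, from 0 to 2 at ZT20 against ZT8 and from 0 to 3 for JTK_Cycle. All genes called ran over these fits from 0 to 2746 for the cosine and from 0 to 2480 for the time points. They ran from 0 to 4095 at ZT8 against ZT0, 0 to 3927 at ZT16 against ZT8, 0 to 2389 at ZT20 against ZT8 and 0 to 740 for JTK_Cycle. The count of members stayed at 0 at ZT12 against ZT0, and the count off the input stayed at 1 when single libraries were left out. A time point left with 2 libraries is assumed to vary like the others.

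The replicate block was fitted because libraries of different times share replicate numbers. The deviations of same-numbered libraries correlated between -0.15 and 0.18, and 4 of 45 pairs were over 0.1, so the numbers were not taken to pair the samples. With the block, 1 member passed the cosine, 3 passed the time-point test, 4 were called at ZT8 against ZT0, 4 at ZT16 against ZT8, 1 at ZT20 against ZT8 and 0 at ZT12 against ZT0. All genes called with it were 774, 1004, 2756, 2582, 7 and 5 in that order.

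Directions turned for differences that were not called, and for Hnrnpa2b1 at ZT16 against ZT8. With the first component as a covariate, the log2 difference at ZT8 against ZT0 was -0.17 for Tardbp and 0.064 for Matr3, that at ZT16 against ZT8 was 0.13 for Ewsr1, 0.10 for Tardbp, 0.031 for Hnrnpa2b1 and -0.071 for Matr3, and that at ZT20 against ZT8 was 0.13 for Tardbp, -0.049 for Hnrnpa1, 0.047 for Hnrnpa2b1 and -0.061 for Matr3. With the cholinergic score, the differences were -0.10 for Tardbp at ZT8 against ZT0, 0.12 for Ewsr1 and 0.066 for Tardbp at ZT16 against ZT8, and 0.10 for Tardbp and -0.0052 for Matr3 at ZT20 against ZT8. With the oligodendrocyte score, Tia1 differed by 0.027 at ZT8 against ZT0. With libraries left out, the log2 difference of Tia1 ran from -0.34 to 0.075 at ZT8 against ZT0 and from -0.057 to 0.45 at ZT20 against ZT8, that of Ncbp1 from -0.054 to 0.14 and that of Tardbp from -0.31 to 0.0083 at ZT20 against ZT8. The 4 members called at ZT8 against ZT0 did not change sign under the alternatives run, but with the first component as a covariate their log2 differences were near 0 for Hnrnpa2b1 (0.0097 in place of 0.55), 0.11 for Taf15, -0.086 for Hnrnpa1 and -0.25 for Atxn2, each with an edgeR adjusted p of 1.00. That component was computed from the same libraries and itself differed between ZT0 and ZT8, so the fit takes up part of the time difference. Depth limited Tia1 most, with 33 counts in its lowest IP library.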
